A study of Homo sapiens with 6 samples.

Results

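The 39 genes described here encode subunits of the vacuolar proton pump (V-ATPase) and proteins that sit in, or work at, the lysosomal membrane, and they were measured in ZR-75-1 cells with and without abemaciclib. They were chosen by function, as a list of gene symbols, and each symbol matched 1 Ensembl identifier among the 60656 rows of the count table. Of these, 20 are genes of the proton pump: 8 of the membrane sector V0, 10 of the cytosolic sector V1 and 2 accessory proteins. The other 19 comprise 4 membrane glycoproteins, 2 cholesterol export genes, 5 channels and exchangers, and 8 transporters and other membrane proteins. The list was proposed after earlier results of these same libraries had shown higher lysosomal gene expression with abemaciclib, so the direction of the values below is a description and not independent evidence.

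The V-ATPase is a rotary machine that burns ATP in its V1 sector to drive protons through its V0 sector, and it sets the acid pH in which lysosomal hydrolases work. The surrounding membrane is lined with heavily glycosylated proteins and carries the transporters and channels that return sugars, amino acids, cholesterol and ions to the cytosol. The lysosome is also where nutrient signals reach mTORC1, and part of the pump takes part in that signalling.

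ZR-75-1 is an established oestrogen receptor-positive luminal breast cancer cell line, and abemaciclib is an inhibitor of the kinases CDK4 and CDK6. Parental cells were given either abemaciclib at 500 nM or an equal volume of its solvent DMSO for 4 days, with 3 libraries per group, each described by the study as an independent biological replicate. The study also covered RB1-knockout cells, which were not analysed here. Libraries were made with a 3′ mRNA kit, in which a transcript gives about the same number of reads whatever its length, and levels are given in CPM, the count of a gene scaled to a common library size, with TMM, a correction for differences in composition between libraries.

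Totals ran from 3317860 to 3473916 counts in the DMSO libraries and from 3344919 to 4013156 in the abemaciclib libraries, so that the 3 counts which a reading of 0 still allows correspond to 0.74 to 0.909 CPM (counting error only). The proliferation genes MKI67, TOP2A, CCNB1 and TK1 were all lower with abemaciclib, MKI67 falling from 525.8 ± 31.4 to 5.00 ± 2.28 CPM (SD, n = 3). All 8 luminal markers were detected; TFF1, ESR1 and KRT19 were higher and KRT18 lower, and the summed level of the list was 7281 to 7878 CPM with DMSO and 10840 to 12330 CPM with abemaciclib, whose part in the results was not tested. Of 11 markers of other cell types, 9 were at 0 in every library (KRT5, KRT14, TP63, VIM, COL1A2, PDGFRB, PTPRC, CD14 and PECAM1); COL1A1 and ACTA2 made up the list's sum of 18.71 to 29.08 CPM with DMSO and 10.61 to 17.02 CPM with abemaciclib. ACTA2 fell from 9.25 ± 3.71 to 1.31 ± 0.714 CPM (log2 fold change -2.82, adjusted p = 0.000191), and COL1A1 did not pass (-0.06). None of 7 genes of specialised acid-secreting cells passed the filter on low counts, and the highest count of any of them was 10. In bulk RNA a change in the share of one kind of cell and a change in RNA per cell cannot be told apart, and the part of the cell cycle change in the values below was not tested.

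Lysosomal genes are known for an E-box in their promoters, the letters CACGTG, which several basic helix-loop-helix factors read; with a T before and an A after, TCACGTGA, it forms the centre of the element bound by TFEB, a regulator of lysosomal genes. Both strings read the same on either strand, and the 6 letters lie inside the 8. A RefSeq window of 250 bases before to 50 bases after the transcription start was at hand for 32 of the 39 genes (ATP6V0E1, ATP6V1A, ATP6V1B2, ATP6V1C1, ATP6V1H, LAMP2 and LAPTM4B were not among them), and the first window listed was read for each gene. CACGTG was present in 9 of the 32 windows (28.1%), against 2030 of all 27305 windows of the table (7.43%) and 898 of the 8589 windows of genes tested for expression (10.5%). TCACGTGA was present in 5 of the 32 (15.6%), against 1.04% of all windows and 2.17% of those of tested genes. Only the windows of ATP6V1G1 and MCOLN1 (6.25%) also had a G before and a C after the 8 letters, against 0.381% of all windows and 0.862% of those of tested genes. The windows of these genes were rich in G and C, with a median of 67.7% against 58.3% over all windows and 65.7% over those of tested genes, and a match describes the letters and not a bound site.

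The 5 windows with the 8-letter string are shown first, and that of ATP6AP1 last, because it had the largest log2 fold change of the 33 tested genes and no match. Promoter sequence was not used to choose the genes. They were chosen as lysosomal, though, and this E-box is known from lysosomal genes, so its share among them is not independent of the choice. All are given 5′ to 3′ on the strand of the gene, from RefSeq on GRCh38.p14, with every CACGTG in capitals. They lie at chr16:67481108-67481407 (minus strand) for ATP6V0D1, chr9:114587519-114587818 (plus strand) for ATP6V1G1, chr13:113296989-113297288 (plus strand) for LAMP1, chr19:7522374-7522673 (plus strand) for MCOLN1, chr16:28492025-28492324 (minus strand) for CLN3 and chrX:154428427-154428726 (plus strand) for ATP6AP1.
ATP6V0D1: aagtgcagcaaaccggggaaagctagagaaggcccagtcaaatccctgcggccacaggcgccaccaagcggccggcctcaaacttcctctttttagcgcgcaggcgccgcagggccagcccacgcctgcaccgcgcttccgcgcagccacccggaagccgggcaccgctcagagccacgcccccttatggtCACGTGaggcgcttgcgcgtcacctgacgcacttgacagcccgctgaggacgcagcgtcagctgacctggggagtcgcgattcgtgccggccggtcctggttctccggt
ATP6V1G1: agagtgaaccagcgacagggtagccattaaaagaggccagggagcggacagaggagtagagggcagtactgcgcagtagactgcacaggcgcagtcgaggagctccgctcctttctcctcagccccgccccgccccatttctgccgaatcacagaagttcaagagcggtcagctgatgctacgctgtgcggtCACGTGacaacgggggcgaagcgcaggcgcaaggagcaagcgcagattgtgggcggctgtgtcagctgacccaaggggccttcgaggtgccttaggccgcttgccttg
LAMP1: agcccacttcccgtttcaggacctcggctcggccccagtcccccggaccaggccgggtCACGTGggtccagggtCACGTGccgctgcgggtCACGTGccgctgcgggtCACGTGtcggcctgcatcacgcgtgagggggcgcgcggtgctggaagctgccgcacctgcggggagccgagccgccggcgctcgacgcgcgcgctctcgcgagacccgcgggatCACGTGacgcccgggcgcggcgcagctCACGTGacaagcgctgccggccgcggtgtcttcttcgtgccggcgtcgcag
MCOLN1: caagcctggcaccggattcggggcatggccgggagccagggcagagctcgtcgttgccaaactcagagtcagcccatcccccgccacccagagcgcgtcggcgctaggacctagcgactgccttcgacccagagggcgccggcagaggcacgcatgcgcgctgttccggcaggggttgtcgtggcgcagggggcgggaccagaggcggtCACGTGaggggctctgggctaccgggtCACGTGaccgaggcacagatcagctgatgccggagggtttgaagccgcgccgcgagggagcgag
CLN3: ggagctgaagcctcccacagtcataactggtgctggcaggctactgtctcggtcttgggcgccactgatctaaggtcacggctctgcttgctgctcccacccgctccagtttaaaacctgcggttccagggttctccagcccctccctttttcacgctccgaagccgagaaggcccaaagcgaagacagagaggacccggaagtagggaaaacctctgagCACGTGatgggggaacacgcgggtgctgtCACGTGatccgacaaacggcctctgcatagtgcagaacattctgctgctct
ATP6AP1: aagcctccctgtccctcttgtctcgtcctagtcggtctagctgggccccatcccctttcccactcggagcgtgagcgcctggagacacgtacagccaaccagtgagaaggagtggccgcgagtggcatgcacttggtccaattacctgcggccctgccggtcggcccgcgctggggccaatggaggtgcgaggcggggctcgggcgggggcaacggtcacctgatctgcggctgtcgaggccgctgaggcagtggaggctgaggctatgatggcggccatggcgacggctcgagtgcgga

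In ATP6V0D1 and ATP6V1G1 the single match began at position -59 and at position -58, counted from the start site, and LAMP1 held 6 matches, the most of these windows. The other windows with the 6 letters alone were those of ATP6V0B, ATP6V0E2, CD63 and CLCN7. Pump genes and the rest held CACGTG in similar shares, 4 of 15 windows (26.7%) and 5 of 17 (29.4%). It was present in 6 of the 14 windows of genes that were higher with abemaciclib in the comparison that follows (42.9%) and in 2 of the 12 windows of tested genes that did not pass (16.7%), a difference of a few genes that was not tested. ATP6AP1, ATP6AP2, ATP6V0A1, ATP6V1F, NPC2, LAPTM4A, SLC17A5 and TMEM192, all higher with abemaciclib, had no CACGTG in their windows.

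The comparison asked how the pump and its neighbours in the membrane moved when cells were held in CDK4/6 inhibition. Of the 39 genes, 33 had enough counts to be tested, and 17 of these rose with treatment past an adjusted p of 0.05 (edgeR's quasi-likelihood test, Benjamini-Hochberg over all 10863 genes tested), against 12.5% of all tested genes. After a log2 fold change, ± gives the standard error of the fit, and after a level or a ratio it gives the SD over 3 libraries. None was lower, against 13.3% of all tested genes, and 16 did not pass. Nor was any lower with DESeq2, which called 1166 genes lower in all. At an unadjusted p under 0.05 none was lower either, a threshold whose share over all genes was not counted. The log2 fold change was above 0 for 29 of the 33 (87.9%), against 49.8% of all tested genes. Their median was 0.46, that of all tested genes -0.00 with quartiles of -0.32 and 0.31, and the log2 fold change of 9 of the 33 was above the 90th percentile of all tested genes. In 18 of the 33 the lowest abemaciclib library exceeded the highest DMSO library, against 19.1% of all tested genes. In none was the reverse so, but the share of all tested genes with the reverse was not counted.

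**Figure D1:**
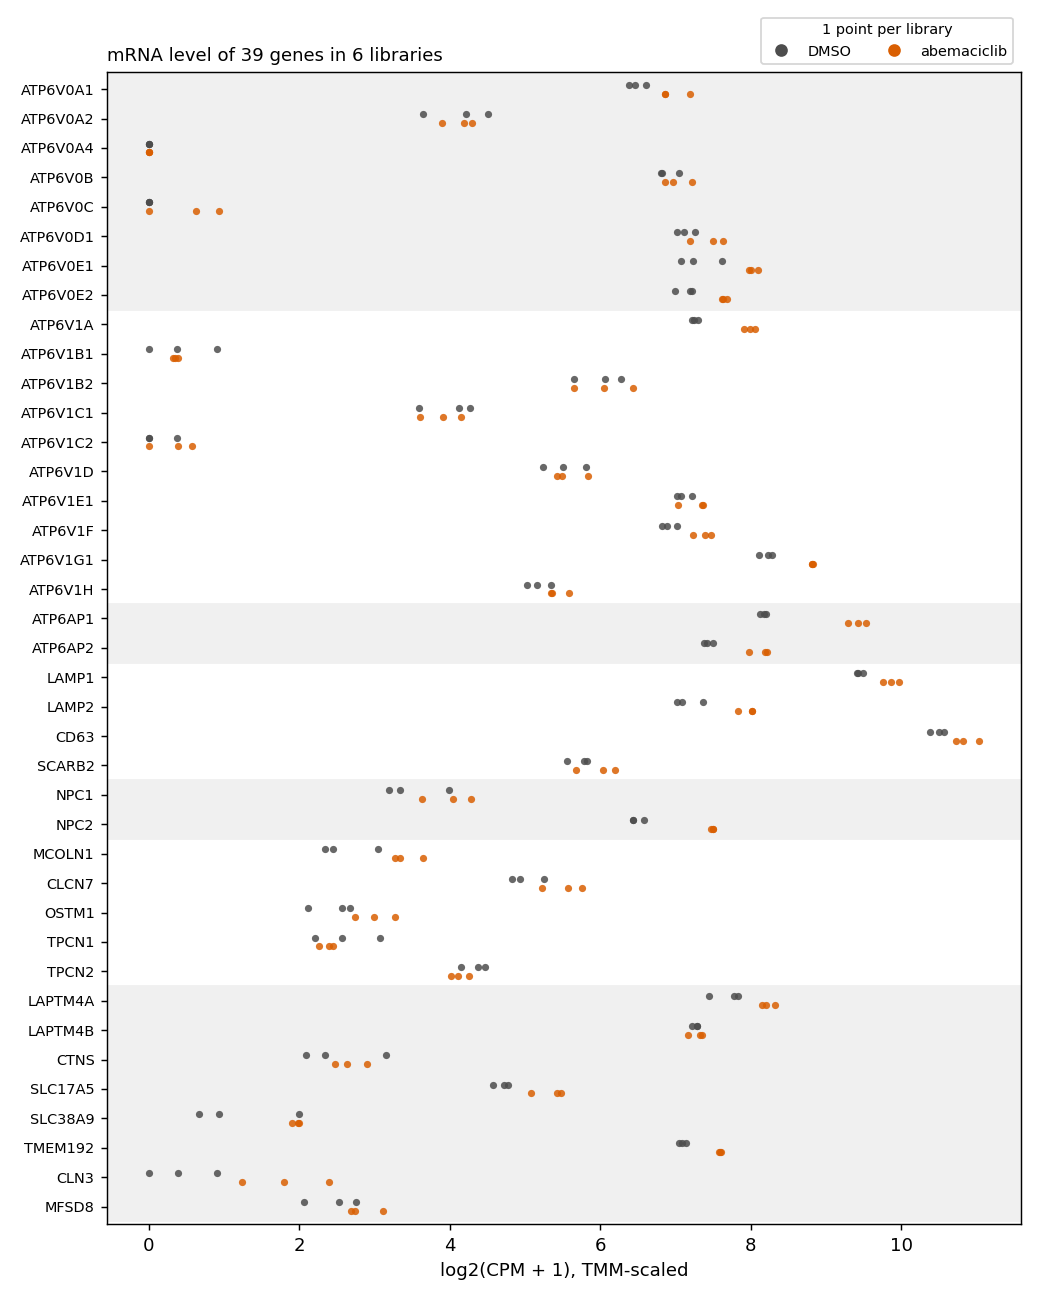
Level of all 39 genes in each library as log2(CPM + 1), with 1 point per library; grey points are DMSO and orange points abemaciclib, and shaded bands mark the groups of genes in the order V0, V1, accessory proteins, glycoproteins, cholesterol export, channels, transporters. ATP6AP1, NPC2 and ATP6V1G1 show widely separated groups of points, and genes near the left edge were at or close to 0 counts.

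The chance to call a gene moved with its level. All 17 genes that passed had a mean over the 6 libraries of at least 32.1 CPM: 15 of the 20 tested at 50 CPM or more, 2 of the 4 from 20 to 50 CPM, and 0 of the 9 under 20 CPM. The median standard error of the log2 fold change was 0.11 in the highest of these ranges and 0.37 in the lowest, so the scarce transcripts were measured with less precision and a change in them of the median size, 0.46, was not detectable at this depth. Among all 3329 tested genes at 50 CPM or more, 20.9% were higher and the median log2 fold change was 0.03.

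**Figure D2:**
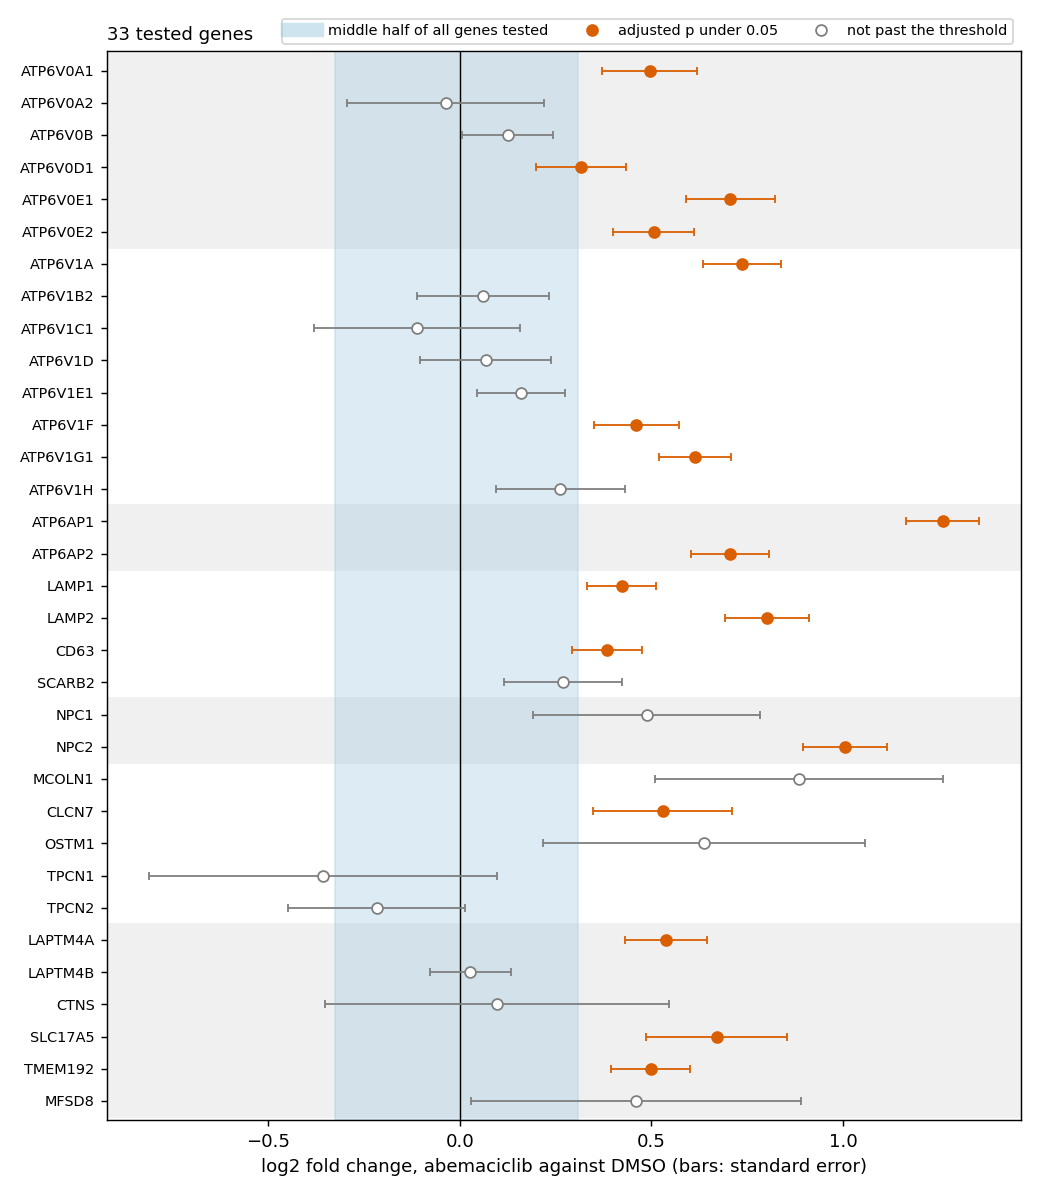
Log2 fold change, abemaciclib against DMSO, for the 33 tested genes, with bars of 1 standard error; filled points passed an adjusted p of 0.05, open points did not, and the blue band spans the quartiles of all tested genes (-0.32 to 0.31). The values run from -0.36 for TPCN1 to 1.26 for ATP6AP1, and the widest bars belong to low-count genes.

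In the membrane sector V0, which holds the rotating proteolipid ring and the proton path, 4 of 6 tested subunits rose, and the median change on the log2 scale was 0.41. ATP6V0A1, the form of subunit a that is common in neurons and many other cells and forms the proton half-channels, stood at 82.4, 87.0 and 96.0 CPM in the DMSO libraries and at 145, 115 and 115 CPM in the abemaciclib libraries. Its log2 fold change was 0.50 ± 0.12 (SE, adjusted p = 0.00331), and the groups did not overlap. ATP6V0A2, a form of subunit a best known at the Golgi, was scarce, at 21.8, 17.5 and 11.5 CPM with DMSO and 17.2, 13.8 and 18.6 CPM with abemaciclib, and its log2 fold change of -0.04 ± 0.26 did not pass.

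The small membrane subunit e is made from a pair of genes, and both were higher. ATP6V0E1 was at 149, 195 and 134 CPM with DMSO and 251, 273 and 256 CPM with abemaciclib (log2 fold change 0.71 ± 0.12, adjusted p = 3.26e-05). ATP6V0E2 was at 145, 126 and 148 CPM against 204, 196 and 196 CPM (0.51 ± 0.11 on the log2 scale, adjusted p = 0.00058). In each of them the lowest abemaciclib library lay above the highest DMSO library. An antisense gene, ATP6V0E2-AS1, overlaps the 3′ end of ATP6V0E2 on the opposite strand, and whether the counting used strand is not given in the sources used here.

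Subunit d, which ties the ring to the central stalk, is made from ATP6V0D1, and this was the weakest call in the pump. It read 138, 129 and 153 CPM with DMSO and 179, 146 and 198 CPM with abemaciclib, for a log2 fold change of 0.32 ± 0.12 (adjusted p = 0.0475). The groups overlapped, since the second abemaciclib library lay below the highest DMSO library, and the call was lost under 7 of the alternatives tried, leaving out DMSO replicate 1 or 2 or abemaciclib replicate 1 or 3 among them. ATP6V0B, a proteolipid of the ring, did not pass, at 111, 131 and 112 CPM against 147, 124 and 115 CPM (log2 fold change 0.13 ± 0.12).

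The remaining V0 genes fell below the filter. ATP6V0C, which encodes the main proteolipid of the ring, had 0, 0 and 0 counts with DMSO and 3, 0 and 2 with abemaciclib. Counts of 0 allow up to 0.909 CPM by counting error, and both groups were at or near that limit, so no change is given. That limit does not cover reads left out of the counting, so these counts do not show that the transcript was scarce. The 3′ end of ATP6V0C overlaps a readthrough gene on the same strand, ENSG00000260272, itself at 0 counts in every library. How reads that overlap more than 1 gene were counted is not given in the sources used here, and a loss of such reads was not tested. The sums of V0 and of the pump given below hold almost nothing of ATP6V0C. ATP6V0A4, the form of subunit a typical of kidney and other acid-secreting epithelia, had 0 counts in all 6 libraries.

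In the V1 sector, which binds and splits ATP, 3 of 8 tested subunits rose, and the median log2 fold change was 0.21. ATP6V1A, the subunit that carries the catalytic sites, was at 148, 156 and 150 CPM with DMSO and at 265, 254 and 239 CPM with abemaciclib. The replicates of each group lay close together and the groups were far apart (log2 fold change 0.74 ± 0.10, adjusted p = 1.8e-06). Its partner in the hexamer, ATP6V1B2, spread from 49.4 to 76.6 CPM with DMSO and from 49.3 to 85.1 CPM with abemaciclib, and its log2 fold change of 0.06 ± 0.17 did not pass. The ratio of ATP6V1A to ATP6V1B2 was 1.94, 2.37 and 3.04 in the DMSO libraries and 5.37, 3.88 and 2.81 in the abemaciclib libraries, and these groups overlapped.

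ATP6V1G1, a subunit of the peripheral stalks that hold the motor still, was at 297, 309 and 276 CPM with DMSO and at 448, 449 and 452 CPM with abemaciclib. The 3 treated libraries differed by only a few CPM and lay well above the controls (log2 fold change 0.61 ± 0.09, adjusted p = 9.31e-06). ATP6V1F, a small subunit of the central stalk, went from 128, 112 and 117 CPM to 177, 166 and 149 CPM without overlap (0.46 ± 0.11 on the log2 scale, adjusted p = 0.00249).

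The other stalk subunits did not pass. ATP6V1E1, ATP6V1D and ATP6V1H had log2 fold changes of 0.16 ± 0.11, 0.07 ± 0.17 and 0.26 ± 0.17; the regulatory subunit ATP6V1H was nonetheless higher in every abemaciclib library than in any DMSO library, if narrowly. ATP6V1C1, which helps to hold the sectors together, read 18.3, 10.99 and 16.4 CPM with DMSO and 11.2, 16.8 and 14.1 CPM with abemaciclib (log2 fold change -0.11 ± 0.27). ATP6V1B1 and ATP6V1C2, forms of their subunits known from kidney and other specialised epithelia, were not tested: the first had 3, 1 and 0 counts with DMSO and 1, 1 and 1 with abemaciclib, and the second 0, 1 and 0 against 1, 2 and 0.

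Both accessory proteins of the pump rose, and ATP6AP1 showed the largest log2 fold change of the 33 tested genes. ATP6AP1 (Ac45, chrX:154428633-154436516) is a glycoprotein of the V0 sector that takes part in assembling and guiding the pump, and it was at 277, 288 and 292 CPM with DMSO and at 689, 623 and 741 CPM with abemaciclib. The treated libraries lay far above the controls in each case (log2 fold change 1.26 ± 0.09, adjusted p = 1.95e-11). ATP6AP2 (chrX:40579372-40606848), the (pro)renin receptor and a partner in pump assembly, was at 169, 165 and 180 CPM and at 290, 296 and 252 CPM, again without overlap (log2 fold change 0.71 ± 0.10, adjusted p = 4.45e-06). The ratio of ATP6AP1 to ATP6AP2 within a library was 1.64, 1.75 and 1.63 with DMSO and 2.37, 2.11 and 2.94 with abemaciclib, so the ratio was higher in each treated library than in any control, which is described without a test.

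The pump was then set beside the rest of the list. In the pump 9 of 16 tested genes passed as higher and the middle log2 fold change was 0.39; among the other genes 8 of 17 did and it was 0.49, a difference of medians of -0.10, which was 0.04 over genes with a mean of 50 CPM or more. Genes are not replicates, and no test was made of this difference. The median over pump genes relative to the DMSO mean was 0.45, 0.39 and 0.40 in the 3 abemaciclib libraries, and over the other genes 0.46, 0.47 and 0.48. The summed level of the pump went from 1980 ± 24.8 to 3056 ± 56.4 CPM (SD, n = 3), a ratio of 1.54, and that of the rest from 3011 ± 99.3 to 4081 ± 234 CPM, a ratio of 1.36. CD63 and LAMP1 made up most of the latter sum, and without them it went from 888 ± 39.7 to 1287 ± 52.0 CPM, a ratio of 1.45.

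Within the pump the accessory proteins had the larger ratio. The V0 sum went from 662 ± 20.6 to 903 ± 39.05 CPM (ratio 1.36) and the V1 sum from 861 ± 33.3 to 1189 ± 23.6 CPM (ratio 1.38). The sums thus moved by nearly equal ratios, but abundant genes weigh most in a sum. The median log2 fold change was 0.41 in V0 and 0.21 in V1. The sum of the accessory proteins went from 457 ± 13.7 to 963 ± 38.86 CPM, a ratio of 2.11. Without them the pump's sum had a ratio of 1.37, close to the 1.36 of the rest and below the 1.45 of the rest without CD63 and LAMP1, and its median log2 fold change was 0.29.

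**Figure D3:**
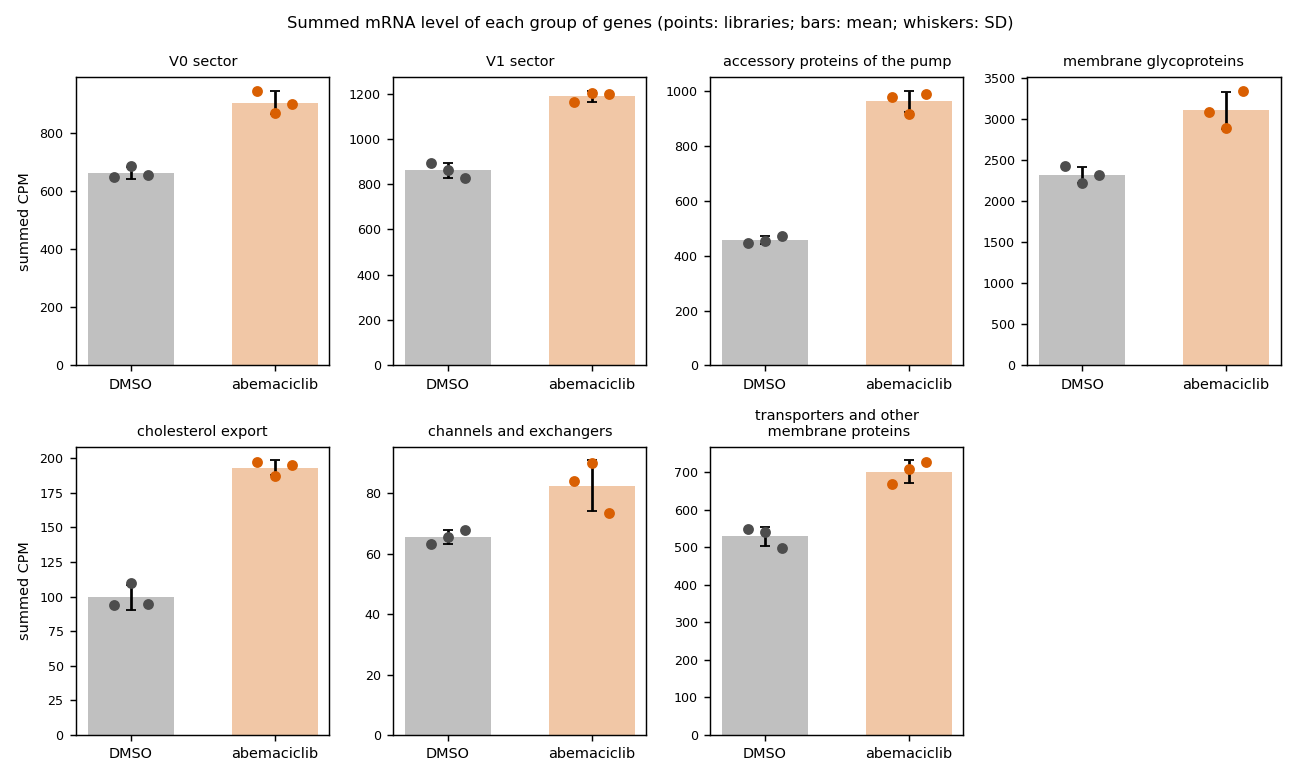
Summed level in CPM of each of the 7 groups of genes, with 1 point per library, bars at the mean of 3 libraries and whiskers of 1 SD; each panel has its own axis starting at 0. In every panel the orange points lie above the grey ones, with ratios from 1.26 for channels and exchangers to 2.11 for the accessory proteins.

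Among the membrane glycoproteins, which shield the membrane from the hydrolases it encloses, 3 of 4 were higher. LAMP2 (chrX:120426148-120469365), a lysosome-associated glycoprotein with a part in autophagy, was at 135, 163 and 128 CPM with DMSO and at 227, 258 and 257 CPM with abemaciclib (log2 fold change 0.80 ± 0.11, adjusted p = 1.9e-06). LAMP1, its more abundant relative here, was at 718, 685 and 680 CPM against 1002, 863 and 926 CPM (log2 fold change 0.42 ± 0.09, adjusted p = 0.000661). CD63, a tetraspanin of late endosomes and exosomes and the highest of the 39 genes in CPM, was at 1512, 1327 and 1449 CPM against 1804, 1696 and 2091 CPM (log2 fold change 0.38 ± 0.09, adjusted p = 0.00223). The groups did not overlap for any of these genes. The ratio of LAMP2 to LAMP1 was 0.205 ± 0.0289 with DMSO and 0.268 ± 0.0371 with abemaciclib, and its ranges overlapped. SCARB2, the receptor that carries glucocerebrosidase to lysosomes, did not pass, with 51.9 ± 5.16 and 62.4 ± 11.2 CPM (log2 fold change 0.27 ± 0.15).

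The cholesterol export genes were NPC2, which encodes a soluble protein of the lysosomal lumen that picks up cholesterol, and NPC1, the membrane protein that receives it. NPC2 (chr14:74476192-74494177) was at 85.6, 94.8 and 85.7 CPM with DMSO and at 179, 176 and 179 CPM with abemaciclib. The abemaciclib libraries nearly coincided, and the groups did not overlap. Its log2 fold change of 1.00 ± 0.11 (adjusted p = 3.73e-08) was the second largest of the 33 tested genes. NPC1 was far lower, at 8.12, 14.9 and 9.09 CPM against 18.5, 11.3 and 15.4 CPM, and its log2 fold change of 0.49 ± 0.30 did not pass.

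Of the 5 channels and exchangers, 1 passed. CLCN7, the chloride-proton exchanger that supports acidification, was at 29.6, 27.3 and 37.0 CPM with DMSO and at 46.3, 52.8 and 36.2 CPM with abemaciclib. The groups overlapped, and the log2 fold change of 0.53 ± 0.18 (adjusted p = 0.0312) lost its call under 6 of the alternatives, leaving out DMSO replicate 1 or 2 or abemaciclib replicate 1 or 2 among them. OSTM1, the partner subunit that CLCN7 needs for stability, did not pass but was higher in every treated library, at 6.96, 5.67 and 8.65 CPM against 4.93, 5.35 and 3.33 CPM (log2 fold change 0.64 ± 0.42).

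MCOLN1, the calcium release channel TRPML1, was the closest of the uncalled genes. It read 4.06, 4.46 and 7.27 CPM with DMSO and 11.5, 9.13 and 8.65 CPM with abemaciclib, and the groups did not overlap. Its log2 fold change of 0.89 ± 0.37 had an adjusted p of 0.0835, which became 0.0481 when DMSO replicate 3 was left out. PNPLA6 and a further gene on the same strand overlap the 3′ end of MCOLN1. The endolysosomal cation channels TPCN1 and TPCN2 had negative values that did not pass: TPCN1 was at 4.93, 7.43 and 3.63 CPM against 4.24, 4.44 and 3.78 CPM (log2 fold change -0.36 ± 0.45). TPCN2 was at 19.7, 21.1 and 16.7 CPM against 15.1, 18.0 and 16.2 CPM (-0.22 ± 0.23).

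In the group of transporters and other membrane proteins 3 of 6 tested genes were higher. TMEM192, a lysosomal membrane protein widely used as a tag for lysosome isolation, was at 140, 135 and 131 CPM with DMSO and at 192, 193 and 189 CPM with abemaciclib (log2 fold change 0.50 ± 0.10, adjusted p = 0.000522). LAPTM4A, a small membrane protein of late endosomes and lysosomes, was at 226, 217 and 172 CPM against 283, 294 and 317 CPM (log2 fold change 0.54 ± 0.11, adjusted p = 0.000347). SLC17A5, which exports sialic acid freed from glycoproteins, was at 25.2, 22.9 and 26.4 CPM against 32.7, 43.7 and 41.9 CPM (log2 fold change 0.67 ± 0.19, adjusted p = 0.00759). Each of them had its lowest treated library above its highest control.

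LAPTM4B, the relative of LAPTM4A, was about as high as TMEM192 and well measured, and it read 152 ± 3.61 CPM with DMSO and 155 ± 10.6 CPM with abemaciclib (log2 fold change 0.03 ± 0.11). The cystine exporter CTNS and MFSD8, a gene mutated in a neuronal ceroid lipofuscinosis of childhood, were scarce and had log2 fold changes of 0.10 ± 0.45 and 0.46 ± 0.43. SLC38A9, the amino acid transporter that reports arginine to mTORC1, had 2, 10 and 3 counts with DMSO and 9, 12 and 11 with abemaciclib, and was not tested. CLN3, the Batten disease gene, had 3, 0 and 1 counts against 14, 10 and 5, which did not overlap but were too few for a test, and a same-strand gene overlaps its 3′ end, itself at 0 counts.

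Further genes of the pump and of the lysosomal membrane, outside the 39, were read from the same fit. Of 15 other pump subunits and assembly factors in the table, 12 were tested, with a median log2 fold change of 0.15. Of these, 3 were higher (25%) and 2 lower, against 12.5% and 13.3% of all tested genes, a matter of a few genes. The risers were CCDC115 (0.70 ± 0.21, adjusted p = 0.0119) and VMA21 (0.46 ± 0.14, adjusted p = 0.0136), both assembly factors of V0 in the endoplasmic reticulum, and TMEM9 (0.31 ± 0.10, adjusted p = 0.0219). The genes that fell were ATP6V1E2 (log2 fold change -1.91 ± 0.51, adjusted p = 0.00612), a form of the stalk subunit E best known from testis and at 29 counts or fewer in every library, and NCOA7 (-0.92 ± 0.27, adjusted p = 0.0123), a protein that interacts with the pump. Of 39 other lysosomal membrane proteins 27 were tested, and the median log2 fold change was 0.42. Of these, 7 were higher (25.9%) and none lower, against 12.5% and 13.3% of all tested genes. None was lower with DESeq2 or at an unadjusted p under 0.05, the latter without a share counted over all genes. Among those that passed, the largest rises were in SLC46A3 (1.87 ± 0.52, adjusted p = 0.00841), ABCA2 (0.93 ± 0.23, adjusted p = 0.00355) and SIDT2 (0.75 ± 0.21, adjusted p = 0.00752), all known from the lysosomal membrane. SLC46A3 was scarce, at 3, 13 and 5 counts with DMSO and 15, 37 and 34 with abemaciclib. ABCA2 was uneven, at 64, 60 and 77 counts with DMSO and 170, 161 and 85 with abemaciclib. So was NCOA7 among the genes that fell, at 61, 63 and 122 counts with DMSO and 45, 59 and 39 with abemaciclib.

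Several of the 39 genes share sequence or ground with others. Annotated pseudogenes of ATP6V0C, ATP6V0E1, ATP6V1E1, ATP6V1G1 and LAPTM4B were all at 0 counts in every library. Besides the loci already named, opposite-strand genes overlap the 3′ ends of NPC1, CLCN7, CTNS and ATP6V1C2, and on the same strand VAX2 overlaps that of ATP6V1B1 and the microRNA gene MIR4709, itself at 0 counts, that of NPC2. Some overlapping genes had mean counts near or above those of the listed gene, given here for DMSO and then abemaciclib. RMC1 had 45.3 and 52.7 beside 36 and 54.7 for NPC1, and TAX1BP3 42.7 and 69.3 beside 17 and 20 for CTNS. PDIA6 had 558 and 782 beside 0.333 and 1 for ATP6V1C2, and PNPLA6 33.3 and 33 beside 17.7 and 35.7 for MCOLN1. With every gene with such an overlap left out, NPC2 included, the median log2 fold change was 0.32 for the pump and 0.44 for the rest.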

How the data were processed

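RNA of 6 ZR-75-1 cultures was profiled with a 3′ mRNA kit, and the values used are the raw counts per gene that the authors deposited. Per the submitters' processing notes, reads were aligned to hg38 with STAR 2.7.5b and counted with featureCounts 2.0.1; the strand setting and the treatment of reads overlapping more than 1 gene are not given in the sources used here. The labels and the methods of the study name the direction of the kit differently. Genes were filtered with filterByExpr, scaled by TMM and compared between groups with the quasi-likelihood test of edgeR 4.0.16 in R 4.3.3, without covariates, p-values being adjusted by Benjamini-Hochberg across the 10863 tested genes and called under 0.05. DESeq2 1.42.0, the tool of the study, was an alternative, as were other scalings and filters, a block on the replicate number and leaving out each library. The steps were tested on simulated counts. The libraries held 3317860 to 4013156 counts, and the biological coefficient of variation was 13.2%. Deviations of same-numbered libraries correlated at -0.049, 0.007 and -0.096 over all tested genes, so no pairing by number was seen. Counting noise in genes of low count could hide one.

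Medians and counts over lists are descriptions with no test. The genes and lists (other pump subunits and assembly factors, other lysosomal membrane proteins, luminal markers, markers of other cell types, genes of specialised acid-secreting cells, proliferation genes) were chosen with earlier results of these data known. Values are given for every library where a listed gene passed the threshold, was negative or was removed by the filter, and for a few others chosen after their values were seen; of the other lists the 3 largest rises and falls are named. Overlaps with other genes were sought in the last 500 bases of the final exon, in the GENCODE annotation of hg38, and promoter windows were RefSeq's.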

Additional observations from a re-analysis of the deposited data

How the results depend on the processing

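The counts of pump genes and of other lysosomal genes higher with abemaciclib stayed within 1.5 times with every other scaling, filter, tool and block tried and with each library left out: 8 and 7 of them with a replicate block, 8 and 7 with DESeq2, 8 and 8 when scaled by library totals alone, and 8 to 9 and 7 to 9 when 1 library was left out. The replicate block lost ATP6V0D1 (adjusted p = 0.0703) and CLCN7 (adjusted p = 0.0636) and called 1139 genes higher and 1280 lower in all. The pump median of 0.39 was 0.47 with no filter on low counts, 0.47 with DESeq2, 0.29 without the accessory proteins, 0.34 to 0.44 when 1 library was left out and, in alternatives chosen after seeing the data, 0.32 without genes overlapped at the 3′ end and 0.50 at a mean of 50 CPM or more. With no filter and with DESeq2 the pump median also took in genes of near 0 counts that the main filter removed, ATP6V0C among them. It then equalled the value of ATP6V1F in those settings, which was 0.46 in the main fit. Those medians and their differences from the rest thus cover another set of genes. The median of the rest was 0.44 without overlapped genes. The difference of -0.10 between pump and rest was -0.038 with no filter, -0.038 with DESeq2, -0.20 without the accessory proteins, -0.16 to -0.033 when 1 library was left out, and 0.040 at 50 CPM or more; the cause was not tested. The promoter share was 6.25% with 4 more letters, by construction the stricter string. Leaving out 1 library changed the sign of 6 genes near 0, with log2 fold changes of -0.25 to 0.18 for ATP6V0A2, -0.15 to 0.23 for ATP6V1B2, -0.30 to 0.039 for ATP6V1C1, -0.069 to 0.23 for ATP6V1D, -0.0047 to 0.085 for LAPTM4B and -0.14 to 0.56 for CTNS. Of 396 single-gene values under alternatives, 370 kept direction and call. Genes under 20 CPM were measured with less precision.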
